A study of Mus musculus with 3 samples.

Results

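The 10 genes described here belong to the NRF2 antioxidant response: Nfe2l2, Keap1, Nqo1, Hmox1, Gclc, Gclm, Txnrd1, Srxn1, Slc7a11 and G6pdx. They were chosen by symbol. Each was a row of the deposited expression table, 10 of 18245 genes, and each was measured in 9 RNA sequencing libraries of mouse cells. The libraries came from 3 kinds of cultured C57BL/6 cell, labelled as heart ventricle epicardium, the thin epithelium that covers the heart, with 3 libraries for each kind. CDC are cardiosphere-derived cells, which grow out of epicardium explants by way of floating spheres. They were taken from mice 6 weeks old and used at passage 3, in a medium with 20% serum and 0.1 mM β-mercaptoethanol, a thiol reductant. CDC-EpiC are cells of 1 epithelial clone, picked from CDC cultures to whose medium SB-431542 had been added at 10 µM for 2 weeks. SB-431542 blocks the kinase of the type I TGF-beta receptor. pEpiC are primary epicardial cells freed by enzyme digestion of hearts of mice 6 to 8 weeks old, used at passage 3 in a medium with 10% serum, whose recipe lists no β-mercaptoethanol. The labels name no genetic change in any group and no compound given to activate NRF2. Kind of cell, medium and way of isolation changed together between pEpiC and the others and cannot be told apart, and the clone stands for 1 clone.

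NRF2, the product of Nfe2l2, is a transcription factor that pairs with small MAF proteins and binds the antioxidant response element of its target genes. KEAP1 holds NRF2 to an ubiquitin ligase that marks it for destruction. When oxidants or electrophiles modify cysteines of KEAP1, NRF2 escapes, enters the nucleus and raises genes that make glutathione, recycle thioredoxin, supply NADPH, reduce quinones and break down haem. This control acts largely on the protein, so the mRNA of Nfe2l2 is no measure of the activity of NRF2. Neither NRF2 protein nor its binding was measured here.

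In RefSeq, Nfe2l2 and Srxn1 lie on chromosome 2, Gclm and Slc7a11 on chromosome 3, Nqo1 and Hmox1 on chromosome 8, Keap1 and Gclc on chromosome 9, Txnrd1 on chromosome 10 and G6pdx on chromosome X. RefSeq (GRCm38.p6, the assembly to which the mm10 build corresponds) gave promoter windows, from 250 bases before to 50 bases after a transcript start, for 8 of the 10 genes, with Hmox1 and Gclc not among them. The core of the antioxidant response element was searched as TGACNNNGC on both strands. It lay in a window of 5 of the 8 genes, Nfe2l2, Gclm, Txnrd1, Srxn1 and G6pdx, against 14.0% of the 27025 genes with a window. Windows of Keap1, Nqo1 and Slc7a11 did not hold these letters. Sequence outside the windows was not searched, so these genes may hold the core elsewhere. The Slc7a11 window held TGATGNAA, the core of the composite element that C/EBP and ATF factors can share, at 66 and 47 bases before the start, in opposite orientation. Of the 32817 windows, 3.97% held that motif. A match of letters describes the sequence and does not show that a factor bound there. The 250 bases before the start are printed for Slc7a11 and G6pdx, which differed most between the kinds of cell, for Gclm, which differed little, and for Txnrd1, which was lower in the clone. They run 5′ to 3′ on the strand of the gene, and capitals mark TGACNNNGC or TGATGNAA on either strand. Slc7a11 lies at chr3:50443614-50443863 on the minus strand, G6pdx at chrX:74428881-74429130 on the minus strand, Gclm at chr3:122245307-122245556 on the plus strand, and the Txnrd1 window with the core, which is 1 of 3, at chr10:82858956-82859205 on the plus strand.
Slc7a11: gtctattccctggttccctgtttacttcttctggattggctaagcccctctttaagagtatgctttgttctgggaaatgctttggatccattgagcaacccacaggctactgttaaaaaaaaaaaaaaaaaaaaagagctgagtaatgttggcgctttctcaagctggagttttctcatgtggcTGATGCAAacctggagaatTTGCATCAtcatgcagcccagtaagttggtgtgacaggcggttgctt
G6pdx: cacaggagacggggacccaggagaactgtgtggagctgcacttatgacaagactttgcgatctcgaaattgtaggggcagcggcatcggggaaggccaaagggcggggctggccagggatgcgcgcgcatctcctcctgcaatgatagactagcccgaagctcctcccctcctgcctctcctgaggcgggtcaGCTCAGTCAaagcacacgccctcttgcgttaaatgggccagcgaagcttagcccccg
Gclm: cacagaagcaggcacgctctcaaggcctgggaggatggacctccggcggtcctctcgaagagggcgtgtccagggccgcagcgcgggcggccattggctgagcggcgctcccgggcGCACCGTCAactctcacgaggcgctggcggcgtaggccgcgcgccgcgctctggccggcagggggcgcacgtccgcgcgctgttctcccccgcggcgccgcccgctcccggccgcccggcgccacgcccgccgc
Txnrd1: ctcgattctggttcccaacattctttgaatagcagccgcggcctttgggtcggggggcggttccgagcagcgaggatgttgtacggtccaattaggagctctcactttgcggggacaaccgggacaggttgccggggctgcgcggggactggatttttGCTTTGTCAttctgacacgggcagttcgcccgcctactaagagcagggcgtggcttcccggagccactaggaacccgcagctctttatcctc

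The libraries were even in depth, with 22008833 to 22756045 expected counts each. Levels are given as CPM, the counts per 1000000 counts of a library, scaled by TMM, edgeR's correction for library composition, or, where genes are compared with each other, as TPM, which also divides by transcript length. A transcript length offset, used as an alternative, removes in each library the trend of counts with transcript length. A gene was called different at an adjusted p under 0.05 in edgeR's quasi-likelihood test over all genes tested. By that test most genes differed between any 2 kinds of cell, so a call alone sets a gene apart little. Markers of other cell types were found in some libraries. The 13 macrophage markers summed to 974, 364 and 337 CPM in pEpiC libraries 1, 2 and 3, where all had counts. They summed to 73.0 to 74.5 CPM in CDC and 30.3 to 33.2 CPM in the clone. In each library of both, 4 of them had 10 or more counts. The largest were Lyz2 (37.7 CPM), Csf1r (19.6 CPM) and Cd14 (13.9 CPM) in CDC. In the clone they were Cd68 (13.3 CPM), Csf1r (9.41 CPM) and Cd14 (7.69 CPM). Among the rest, 3 to 5 had no count in a library, and Ptprc and Adgre1 had 1 count at most. The 7 red blood cell markers summed to 54.3 and 84.7 CPM in CDC libraries 1 and 2 and to 0.182 CPM in CDC library 3. The same CDC libraries 1 and 2 differed from library 3 in other markers, with 31.6 and 30.7 against 9.97 CPM for the 10 cardiomyocyte markers and 30.4 and 27.2 against 0.046 CPM for Alb, the gene of albumin, a liver marker. The cardiomyocyte markers summed to more in pEpiC, 138 to 154 CPM, mostly Tnnt2 (144 CPM), and to 10.2 to 12.8 CPM in the clone. All 9 liver markers together summed to 328, 333 and 301 CPM in CDC libraries 1, 2 and 3. In the clone they summed to 2241 to 2469 CPM, mostly Trf (2365 CPM). The 9 endothelial markers summed to 24.3 to 26.5 CPM in pEpiC, 7.51 to 8.57 CPM in CDC and 8.58 to 10.0 CPM in the clone. The 8 mesenchymal markers summed to 10759 to 13129 CPM in CDC, 5949 to 6535 CPM in the clone and 24569 to 26547 CPM in pEpiC. The part of any of these cells in the levels of the 10 genes was not tested. Both comparisons with CDC were also computed without CDC libraries 1 and 2 together, which leaves CDC library 3 alone. The 9 epicardial and mesothelial markers summed to 4734 to 5531 CPM in the clone, 526 to 550 CPM in CDC and 508 to 533 CPM in pEpiC, and each had counts in every library. The sum of the clone was mostly Upk3b, at 2664 ± 209 CPM, and Lrrn4, at 2129 ± 179 CPM (mean ± SD, n = 3), and of the 8 tested against CDC 5 were higher and 2 lower in the clone. In pEpiC 5 of the 9 were higher and 4 lower than in CDC, against 39.8% and 38.5% of all genes. In the clone 6 were higher and 3 lower than in pEpiC, against 40.3% and 41.5% of all genes. Krt19 was lower in pEpiC than in CDC (1.21 ± 0.191 against 35.4 ± 6.31 CPM), and Upk3b was at 69.1 ± 8.42 CPM in pEpiC. Of the same 9, Wt1 was at 10.1 ± 1.15, 120 ± 11.8 and 50.9 ± 3.90 CPM in CDC, the clone and pEpiC (mean ± SD, n = 3). Tcf21 was at 12.3 ± 0.225, 28.0 ± 2.69 and 102 ± 6.59 CPM. Tbx18 was highest in CDC, at 92.8 ± 2.95, 56.6 ± 6.56 and 48.9 ± 1.10 CPM, and lower in the clone than in CDC (log2 change -0.72, edgeR adjusted p = 2.4e-06). Fewer cells of a type and less RNA per cell cannot be told apart in such libraries.

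All 10 genes were detected in each library and passed the filter on low counts in each comparison. Hmox1, which codes for the enzyme that opens haem to biliverdin, iron and carbon monoxide, stood first in each kind of cell, at 590 ± 39.8 TPM in CDC, 467 ± 26.0 TPM in CDC-EpiC and 553 ± 9.49 TPM in pEpiC (mean ± SD, n = 3). Slc7a11, which codes for the transport subunit of the cystine-glutamate exchanger, stood last in each, at 0.993 ± 0.163, 0.697 ± 0.124 and 8.33 ± 0.937 TPM. Nqo1, the quinone reductase often used as the readout of NRF2, was 9th of the 10 in each kind, at 14.0 ± 1.59, 10.4 ± 3.00 and 11.5 ± 1.71 TPM. The upper ranks were shared by Nfe2l2, G6pdx and Txnrd1. In CDC, G6pdx at 125 ± 4.34 TPM and Nfe2l2 at 118 ± 14.8 TPM differed by less than the spread of Nfe2l2. In pEpiC, Nfe2l2 at 178 ± 8.08 TPM lay above Txnrd1 at 115 ± 6.37 TPM and G6pdx at 84.6 ± 4.32 TPM, with no overlap of the libraries. Gclm, Srxn1, Keap1 and Gclc filled the places between, from 19.6 TPM for Gclc in the clone to 57.7 TPM for Gclm in pEpiC.

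**Figure D1:**
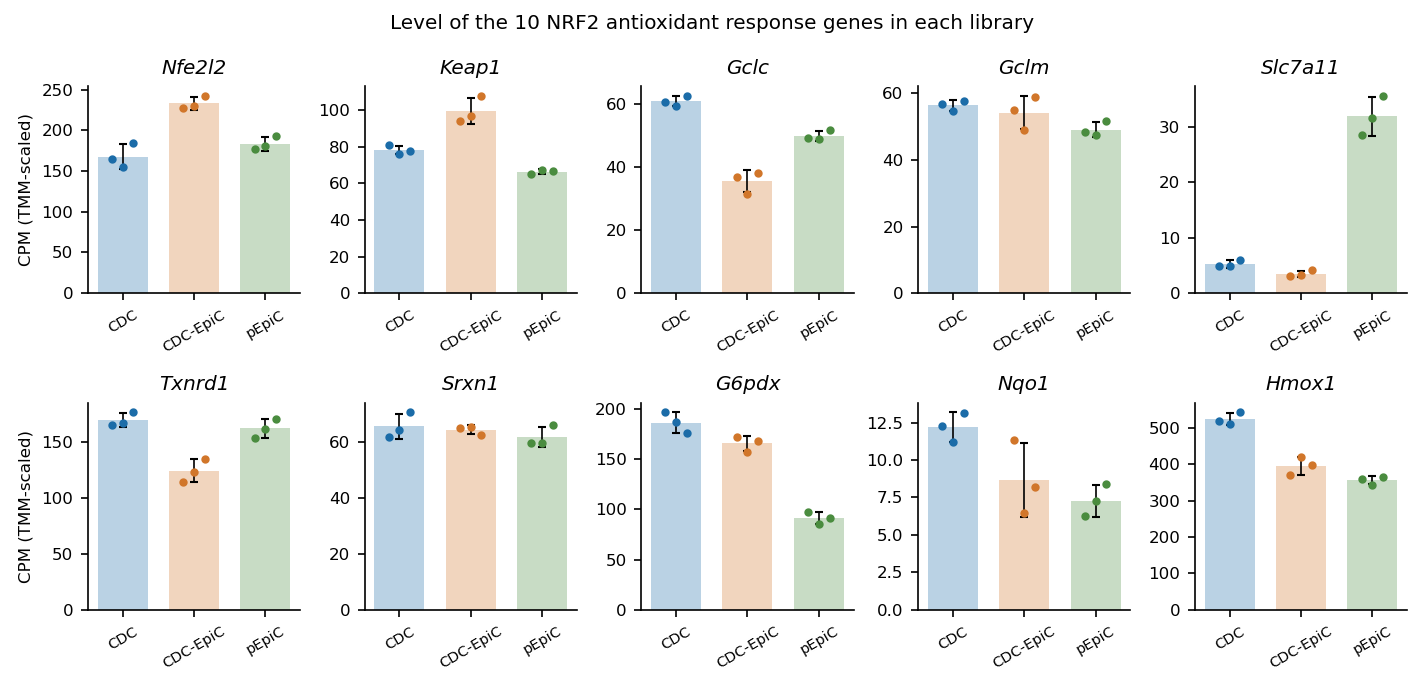
Level of each of the 10 genes in every library, in TMM-scaled CPM on linear axes that start at 0 and differ between genes; dots are libraries, bars the mean of 3 and whiskers the SD. Slc7a11 stands far higher in pEpiC (28.5 to 35.5 CPM) than elsewhere, G6pdx is lowest in pEpiC, and Gclc is lowest in CDC-EpiC.

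Nfe2l2, the gene of NRF2 itself, was measured at 165, 154 and 184 CPM in CDC libraries 1, 2 and 3, at 227, 230 and 242 CPM in CDC-EpiC and at 177, 180 and 193 CPM in pEpiC. The 3 libraries of the clone lay above all others, and the CDC and pEpiC libraries overlapped. Nfe2l2 was thus 1.38-fold higher in CDC-EpiC than in CDC (log2 change 0.47, 95% interval 0.29 to 0.64, edgeR adjusted p = 0.00010). It was 1.26-fold higher in CDC-EpiC than in pEpiC by the count fit (log2 change 0.33, edgeR adjusted p = 0.00017), a difference that log2(TPM + 1) gave as -0.05. Between pEpiC and CDC the log2 change was 0.09, with a 95% interval from -0.07 to 0.25. That difference turned on the scaling and on the CDC libraries. It was 0.15 and called without CDC library 3 (edgeR adjusted p = 0.034), and 0.21 and called with library size alone (edgeR adjusted p = 0.021). It was 0.20 and called with the length offset (edgeR adjusted p = 0.020), and 0.59 and called on log2(TPM + 1). With CDC library 3 as the only CDC library it was -0.041.

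Keap1, the sensor and repressor, moved the same way as Nfe2l2 in the clone. Its level was 80.7, 76.2 and 77.6 CPM in CDC, 94.1, 96.8 and 108 CPM in CDC-EpiC and 64.8, 67.4 and 66.5 CPM in pEpiC, so that the 3 kinds of cell did not overlap. Keap1 was 1.27-fold higher in CDC-EpiC than in CDC (log2 change 0.34, 95% interval 0.18 to 0.50, edgeR adjusted p = 0.0011) and 1.49-fold higher than in pEpiC (log2 change 0.57, 95% interval 0.45 to 0.70, edgeR adjusted p = 6.1e-06). In pEpiC it was lower than in CDC by the count fit (log2 change -0.27, edgeR adjusted p = 0.00087), although log2(TPM + 1) gave 0.21. The ratio of Nfe2l2 to Keap1 in TPM was 2.89 ± 0.293 in CDC, 3.17 ± 0.134 in CDC-EpiC and 3.76 ± 0.168 in pEpiC. The ratios in pEpiC lay above those of the 6 other libraries, while CDC and the clone overlapped.

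The genes of glutathione synthesis parted from each other. Gclc codes for the catalytic subunit of glutamate-cysteine ligase, the rate-limiting enzyme of glutathione synthesis, and Gclm for its modifier subunit. Gclc measured 60.5, 59.4 and 62.4 CPM in CDC, 36.9, 31.4 and 37.9 CPM in CDC-EpiC and 49.2, 48.7 and 51.7 CPM in pEpiC. Each kind of cell had its own range, with the clone lowest. Gclc was lower in CDC-EpiC than in CDC (log2 change -0.79, 95% interval -0.96 to -0.61, edgeR adjusted p = 5.9e-07), which is 0.579 of the CDC level, and lower than in pEpiC (log2 change -0.51, edgeR adjusted p = 0.00010). Between pEpiC and CDC the count fit gave a log2 change of -0.32 (edgeR adjusted p = 0.00032) and log2(TPM + 1) gave 0.16.

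Gclm, in contrast, was 56.9, 54.6 and 57.8 CPM in CDC, 55.0, 48.9 and 58.8 CPM in CDC-EpiC and 48.3, 47.5 and 51.6 CPM in pEpiC. The clone's range took in that of CDC. The log2 change of CDC-EpiC against CDC was -0.07, with a 95% interval from -0.24 to 0.11 (edgeR adjusted p = 0.48). Against pEpiC it was 0.13, with a 95% interval from -0.03 to 0.29. Without CDC-EpiC library 2 that value was 0.20 and called (edgeR adjusted p = 0.011), and log2(TPM + 1) gave -0.25, called the other way (limma adjusted p = 0.018). The drop of Gclm in pEpiC below CDC (log2 change -0.24, edgeR adjusted p = 0.0035) was 0.01 with the transcript length offset.

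The 2 subunits can be set against each other inside each library, where depth cancels. The ratio of Gclc to Gclm in TPM was 0.657, 0.670 and 0.673 in CDC, 0.413, 0.399 and 0.397 in CDC-EpiC and 0.624, 0.628 and 0.608 in pEpiC. The ratio in TPM varied little within a kind of cell, and that of the clone lay well below both others. A trend of counts with transcript length need not cancel in it, with effective lengths of 3370 and 2076 bases. With the length offset, the log2 changes of Gclc and Gclm were -0.81 and -0.09 for CDC-EpiC against CDC. They were -0.46 and -0.13 for CDC-EpiC against pEpiC, and -0.40 and 0.01 for pEpiC against CDC. This ratio was chosen after the levels were known and was not tested.

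**Figure D2:**
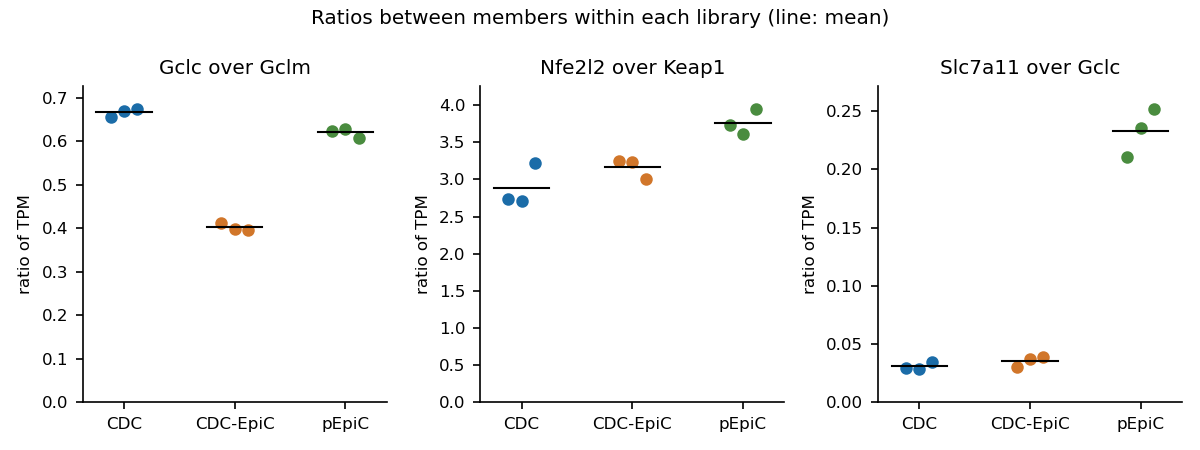
Ratios of TPM between pairs of the 10 genes in each library (dots) with the mean of 3 libraries (lines), on axes that start at 0. Gclc over Gclm was about 0.403 in CDC-EpiC against 0.667 in CDC and 0.620 in pEpiC, and Slc7a11 over Gclc was 0.232 in pEpiC against 0.0309 and 0.0356 in CDC and CDC-EpiC. The transcript length offset was not applied to these ratios.

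Slc7a11, which brings in the cystine from which glutathione is made, had the largest change of the 10 genes in both comparisons with pEpiC. It was at 4.93, 4.81 and 6.01 CPM in CDC, 3.10, 3.24 and 4.09 CPM in CDC-EpiC and 28.5, 31.5 and 35.5 CPM in pEpiC, from 106 to 132, 70 to 92 and 661 to 814 counts. None of the 3 ranges overlapped. Slc7a11 was 5.91-fold higher in pEpiC than in CDC (log2 change 2.56, 95% interval 2.31 to 2.82, edgeR adjusted p = 2.3e-08). Only 8.64% of the 13526 genes tested had a larger change in size, in either direction. In CDC-EpiC it was 0.108 of the pEpiC level (log2 change -3.21, 95% interval -3.48 to -2.93, edgeR adjusted p = 6.6e-09). It was also lower in CDC-EpiC than in CDC (log2 change -0.60, 95% interval -0.95 to -0.25, edgeR adjusted p = 0.0045). Slc7a11 has the longest transcripts of the 10 genes, and with the length offset the difference of pEpiC from CDC was 1.97, still called. The CDC medium held β-mercaptoethanol, which reduces cystine, and the pEpiC recipe lists none. Medium and kind of cell cannot be told apart in this difference.

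Txnrd1, the cytosolic thioredoxin reductase, was lowest in the clone. Its level was 165, 167 and 176 CPM in CDC, 114, 123 and 134 CPM in CDC-EpiC and 154, 162 and 170 CPM in pEpiC. The clone lay below the other 6 libraries, which overlapped. Txnrd1 was lower in CDC-EpiC than in CDC (log2 change -0.46, 95% interval -0.63 to -0.29, edgeR adjusted p = 9.9e-05) and than in pEpiC (log2 change -0.40, 95% interval -0.54 to -0.25, edgeR adjusted p = 0.00023). For pEpiC against CDC its log2 change was -0.10, with a 95% interval from -0.24 to 0.03. That value was -0.18 and called with the length offset, and 0.40 on log2(TPM + 1).

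Srxn1, sulfiredoxin, which restores overoxidised peroxiredoxins, was called in none of the 3 comparisons by the count fit. It was at 61.7, 64.5 and 70.7 CPM in CDC, 65.0, 65.6 and 62.7 CPM in CDC-EpiC and 59.8, 59.8 and 66.0 CPM in pEpiC. The 3 ranges overlapped. The log2 changes were -0.03 for CDC-EpiC against CDC (95% interval -0.19 to 0.12), 0.05 for CDC-EpiC against pEpiC (95% interval -0.08 to 0.17) and -0.12 for pEpiC against CDC (95% interval -0.27 to 0.03). On log2(TPM + 1) the last was 0.37 and called. With CDC library 3 as the only CDC library it was -0.23. Besides its antioxidant element core, the Srxn1 window held 2 AP-1 sites, TGAGTCA, a motif found in 5.20% of windows.

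G6pdx codes for glucose-6-phosphate dehydrogenase, which starts the pentose phosphate pathway and yields NADPH. Its level was 197, 187 and 176 CPM in CDC, 172, 157 and 169 CPM in CDC-EpiC and 97.3, 85.4 and 91.3 CPM in pEpiC. The pEpiC libraries lay far below the other 6. G6pdx was lower in pEpiC than in CDC (log2 change -1.07, 95% interval -1.23 to -0.90, edgeR adjusted p = 4.3e-07), at 0.477 of the CDC level, and 1.80-fold higher in CDC-EpiC than in pEpiC (log2 change 0.85, 95% interval 0.71 to 0.99, edgeR adjusted p = 6.5e-07). The clone lay below CDC without overlap, with a log2 change of -0.18 that just missed the threshold (95% interval -0.34 to -0.01, edgeR adjusted p = 0.051). It was called in 7 of the 17 alternatives. Those with all libraries kept were DESeq2, RLE scaling, a minimum of 10 counts in every library, 1 fit of all 9 libraries and the length offset. The length offset gave a log2 change of -0.20 (edgeR adjusted p = 0.018). The others were without CDC library 3 (log2 change -0.22, edgeR adjusted p = 0.014) and without CDC-EpiC library 1 (log2 change -0.21, edgeR adjusted p = 0.047).

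Nqo1 and Hmox1 were both highest in CDC. Nqo1, low throughout, was at 12.3, 11.2 and 13.2 CPM in CDC, 11.3, 6.47 and 8.18 CPM in CDC-EpiC and 6.25, 7.24 and 8.38 CPM in pEpiC, from 142 to 289 counts in a library. The clone's first library reached into the CDC range and its others into that of pEpiC. Nqo1 was lower in pEpiC than in CDC (log2 change -0.78, 95% interval -1.05 to -0.51, edgeR adjusted p = 0.00018) and lower in CDC-EpiC than in CDC (log2 change -0.50, 95% interval -0.84 to -0.16, edgeR adjusted p = 0.011). On log2(TPM + 1) the first of these differences was -0.26 and not called. Between the clone and pEpiC the log2 change of 0.24 had a 95% interval from -0.21 to 0.68.

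Hmox1 was at 519, 511 and 543 CPM in CDC, 371, 420 and 397 CPM in CDC-EpiC and 360, 344 and 364 CPM in pEpiC. In CPM the CDC libraries lay above the other 6, and those of the clone above those of pEpiC. In TPM the clone (437 to 483) lay below pEpiC (544 to 563). Hmox1 was lower in CDC-EpiC than in CDC (log2 change -0.41, 95% interval -0.58 to -0.24, edgeR adjusted p = 0.00028). It was also lower in pEpiC than in CDC by the count fit (log2 change -0.59, 95% interval -0.73 to -0.46, edgeR adjusted p = 6.5e-06), a difference of -0.14 with the length offset and of -0.09, not called, on log2(TPM + 1). Between the clone and pEpiC the log2 change was 0.14 (edgeR adjusted p = 0.046) and lost its call in 10 and its direction in 3 of the 16 alternatives. In those 3 Hmox1 was called lower in the clone. The values were -0.31 with the length offset (edgeR adjusted p = 0.00050), -0.24 on log2(TPM + 1) and -0.25 on log2(TPM + 0.1) (limma adjusted p = 0.0021 for both). Macrophages, which recycle haem, are a known site of Hmox1. Library 1 of pEpiC, with the most macrophage marker RNA, had 360 CPM of Hmox1, between the values of the other pEpiC libraries. In CDC the libraries with red blood cell marker RNA had 519 and 511 CPM and the library with almost none had 543 CPM. The part of these cells in the Hmox1 level was not tested.

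**Figure D3:**
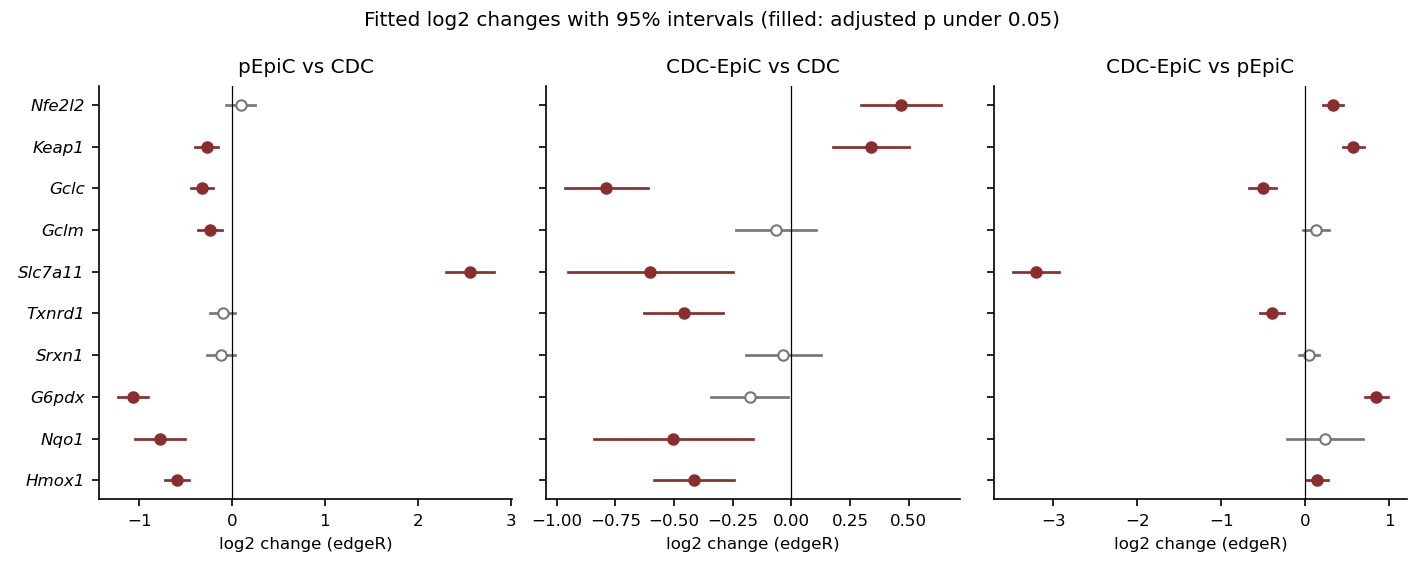
Fitted log2 changes of the 10 genes (points) with 95% intervals (lines) in the 3 comparisons, from edgeR on the 6 libraries of each pair; filled points have an adjusted p under 0.05, and the x axes differ in range. Slc7a11 at 2.56 and -3.21 stands apart from the rest, and in CDC-EpiC against CDC the regulators lie to the right of 0 while Gclc, Txnrd1, Hmox1, Nqo1 and Slc7a11 lie to the left.

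Set side by side, the comparison of CDC-EpiC with CDC gave 7 of the 10 genes called, against 68.8% of the 12976 genes tested. Nfe2l2 and Keap1 were higher, against 34.2% of genes higher, and Gclc, Slc7a11, Nqo1, Txnrd1 and Hmox1 were lower, against 34.6% of genes lower. The median log2 change of the 10 genes was -0.30, beside 0.00 over all genes tested. The share called is near that of all genes. None of the 10 was both called and changed by at least 2-fold, against 21.7% of genes, with Gclc the nearest. For 7 of the 10 genes the libraries of CDC and the clone kept apart, against 72.1% of genes. Nfe2l2, Keap1, Nqo1, Hmox1, Gclc and Txnrd1 kept their call and direction under each of the 17 alternatives run for them. The clone is described as grown from CDC cultures with the inhibitor added to their medium. Its passage and exact medium are not otherwise stated. The inhibitor, the picking of the clone, the passage and any other change of medium cannot be told apart.

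For pEpiC against CDC, 7 of the 10 were called, against 78.3% of the 13526 genes tested. Slc7a11 was higher, against 39.8% of genes higher, and G6pdx, Nqo1, Hmox1, Gclc, Keap1 and Gclm were lower, against 38.5% of genes lower. The median log2 change was -0.26, beside 0.02 over all genes. For 7 of the 10 the libraries kept apart, against 81.4% of genes, and 2, Slc7a11 and G6pdx, were called and changed by at least 2-fold, against 30.1% of genes. This split rests on the scaling. TPM raised the median of all genes to 0.41 and called 6 of the 10 higher (Nfe2l2, Keap1, Gclm, Txnrd1, Srxn1 and Slc7a11) and 1 lower (G6pdx), while 74.5% of all calls were then higher, against 50.8% in the count fit. Relative to that shift, G6pdx was at -0.97, Nqo1 at -0.68, Hmox1 at -0.51, Gclc at -0.26, Keap1 at -0.21 and Gclm at -0.15, and Slc7a11 at 1.81. With the length offset 2 were called higher (Slc7a11 and Nfe2l2) and 6 lower. Slc7a11 and G6pdx kept their call and direction under each of the 17 alternatives.

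**Figure D4:**
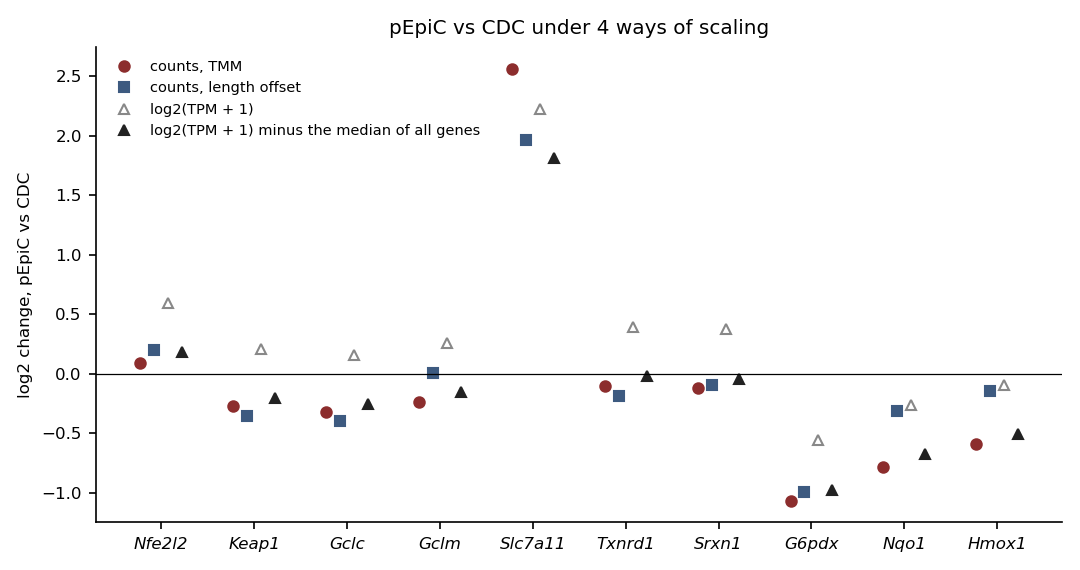
Log2 change of pEpiC against CDC for the 10 genes under 4 ways of scaling: the edgeR count fit with TMM, the same with a transcript length offset, log2(TPM + 1) in limma, and the last minus the median of all genes. Slc7a11 stays above 1.8 and G6pdx below -0.5 under each, while Keap1, Gclc, Gclm, Txnrd1 and Srxn1 lie on both sides of 0.

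For CDC-EpiC against pEpiC, 7 of the 10 were called, against 81.9% of the 13547 genes tested, with G6pdx, Keap1, Nfe2l2 and Hmox1 higher, against 40.3% of genes higher, and Slc7a11, Gclc and Txnrd1 lower, against 41.5% of genes lower. For 7 of the 10 the libraries kept apart, against 83.8% of genes, and 1, Slc7a11, was called and changed by at least 2-fold, against 35.9% of genes. The median log2 change was 0.13, beside -0.02 over all genes. On log2(TPM + 1) 2 were called higher (Keap1 and G6pdx) and 6 lower, Hmox1 among them, with a median of all genes at -0.33. Keap1, G6pdx, Gclc, Txnrd1 and Slc7a11 kept their call and direction under each of the 16 alternatives. The comparisons share libraries, so their values stand side by side and are not separate evidence.

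The partners and regulators of NRF2 varied too. Of 14 genes, all tested, 7 were higher and 3 lower in CDC-EpiC than in CDC, against 34.2% and 34.6% of all genes tested. The counts of this and the following lists are descriptions and were not tested. Nfe2l3, a relative of Nfe2l2 that binds the same kind of element, rose from 2.68 ± 0.254 CPM in CDC to 57.0 ± 1.48 CPM in CDC-EpiC (mean ± SD, n = 3; log2 change 4.40). Crebbp, a coactivator of NRF2, rose with it (40.3 ± 1.84 to 62.2 ± 3.83 CPM). Nfe2l1, the relative that restores proteasome genes, fell from 408 ± 51.1 to 186 ± 14.0 CPM, and the small MAF gene Maff fell from 85.6 ± 1.23 to 48.3 ± 7.69 CPM. In pEpiC against CDC, 7 of the 14 were higher and 6 lower, against 39.8% and 38.5% of all genes tested. On log2(TPM + 1), where 74.5% of all calls were higher, 9 were higher and 3 lower. Bach1, the repressor that competes with NRF2 at Hmox1, rose from 36.3 ± 4.88 to 74.0 ± 0.577 CPM, and Gsk3b, a kinase that marks NRF2 for degradation, from 87.7 ± 7.94 to 185 ± 22.7 CPM. Maff fell to 40.1 ± 0.553 CPM, and Dpp3, a KEAP1 binding protein, from 123 ± 8.93 to 57.9 ± 2.65 CPM.

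Genes that make, reduce and use glutathione split evenly in the clone, with 9 higher and 9 lower than in CDC of 27 tested. All genes tested split evenly too, with 34.2% higher and 34.6% lower. Gsta4, a glutathione transferase that acts on lipid aldehydes, rose from 0.805 ± 0.287 to 34.4 ± 2.96 CPM, and Gstm1 from 198 ± 3.99 to 750 ± 24.8 CPM. Both belong to families of close copies among which reads can be shared. Gpx1, the cytosolic glutathione peroxidase, fell from 388 ± 34.8 to 99.2 ± 2.99 CPM, and Abcc1, an exporter of glutathione conjugates, from 128 ± 10.8 to 63.8 ± 3.24 CPM. In pEpiC against CDC, 8 of 28 were higher and 18 lower, against 39.8% and 38.5% of all genes. With the length offset, where 54.4% of all calls were higher, the counts were 13 and 13. Gpx3, the secreted glutathione peroxidase, rose from 2.01 ± 0.594 to 697 ± 66.8 CPM, while Gpx1 fell to 66.3 ± 2.02 CPM.

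Of the 14 genes of the thioredoxin and peroxiredoxin system, 4 were higher and 6 lower in CDC-EpiC than in CDC. The shares of all genes were 34.2% and 34.6%. Txnip, which binds and inhibits thioredoxin, fell from 99.5 ± 8.78 to 13.5 ± 0.690 CPM (log2 change -2.89), and Sesn2, a stress-induced sestrin, from 53.5 ± 3.12 to 24.3 ± 2.89 CPM. Txnrd2, the mitochondrial counterpart of Txnrd1, rose from 8.83 ± 1.38 to 20.3 ± 1.68 CPM, opposite to Txnrd1. In pEpiC against CDC 2 were higher and 10 lower, against 39.8% and 38.5% of all genes. On log2(TPM + 1) the counts were 3 and 7. Sesn1 rose from 10.4 ± 1.05 to 25.5 ± 0.850 CPM and Sesn2 from 53.5 ± 3.12 to 63.4 ± 4.29 CPM. Sesn2 lost its call in 4 of the 17 alternatives. Prdx5 fell from 530 ± 58.0 to 128 ± 6.09 CPM and Prdx4 from 170 ± 21.5 to 58.9 ± 1.60 CPM. Both are peroxiredoxins, which reduce peroxides.

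Of the 10 other genes that supply NADPH, 2 were higher and 4 lower in CDC-EpiC than in CDC, against 34.2% and 34.6% of all genes. The isocitrate dehydrogenases Idh2 (119 ± 5.37 to 198 ± 5.15 CPM) and Idh1 (124 ± 10.9 to 194 ± 13.0 CPM) rose. Mthfd2, of mitochondrial folate metabolism, fell from 65.0 ± 3.58 to 23.7 ± 2.64 CPM, and Me1, the cytosolic malic enzyme and a known target of NRF2, from 119 ± 8.37 to 59.6 ± 1.14 CPM. In pEpiC 2 were higher and 7 lower than in CDC, against 39.8% and 38.5% of all genes. Idh1 rose from 124 ± 10.9 to 181 ± 5.80 CPM and Mthfd2 from 65.0 ± 3.58 to 81.8 ± 2.41 CPM. Taldo1, of the same pentose phosphate pathway as G6pdx, fell from 208 ± 15.1 to 62.0 ± 3.34 CPM, and Idh2 fell to 58.4 ± 4.17 CPM. Idh1, Mthfd2, Taldo1 and Idh2 each kept call and direction in pEpiC against CDC under the 17 alternatives.

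Detoxifying genes, of which 18 were tested, gave 9 higher and 6 lower in CDC-EpiC than in CDC, against 34.2% and 34.6% of all genes. They gave 2 higher and 13 lower in pEpiC than in CDC, against 39.8% and 38.5% of all genes. On log2(TPM + 1) the counts in pEpiC were 5 and 6. Osgin1, an oxidative stress response gene, was at 50.8 ± 1.68 CPM in CDC, 203 ± 24.3 CPM in CDC-EpiC and 13.7 ± 0.421 CPM in pEpiC. Its order was unlike that of Nqo1. Akr1c13, an aldo-keto reductase with close copies, rose in the clone from 1.54 ± 0.399 to 27.6 ± 2.48 CPM. Cyp1b1, a cytochrome P450 under the aryl hydrocarbon receptor, fell there from 759 ± 76.3 to 70.5 ± 6.27 CPM.

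**Figure D5:**
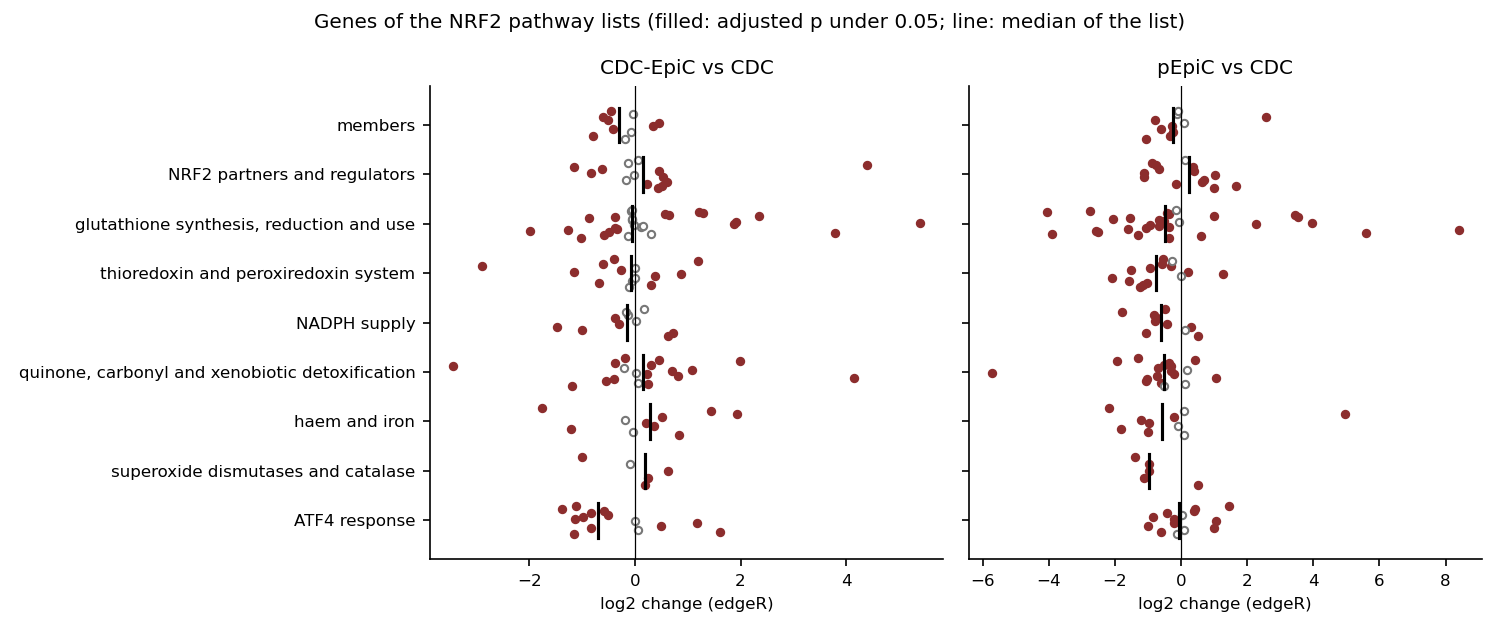
Log2 changes (edgeR) of the genes of each list around the NRF2 response in CDC-EpiC against CDC and in pEpiC against CDC; each dot is a gene, filled where the adjusted p is under 0.05, with the median of the list as a bar and x axes that differ in range. In the clone the medians lie between -0.30 and 0.29 except that of the ATF4 response at -0.70, and in pEpiC that of the superoxide dismutases and catalase lies lowest at -0.97.

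Around Hmox1, 6 of 10 haem and iron genes were higher and 2 lower in CDC-EpiC than in CDC, with Hmox1 itself lower. The shares of all genes were 34.2% higher and 34.6% lower. Slc48a1, a transporter that brings haem to the cytosol, rose from 277 ± 6.25 to 760 ± 40.1 CPM. The transferrin receptor Tfrc fell from 56.0 ± 3.39 to 16.7 ± 0.386 CPM and Blvrb, a biliverdin reductase, from 67.7 ± 4.07 to 29.7 ± 0.932 CPM. In pEpiC 1 was higher and 6 lower than in CDC, against 39.8% and 38.5% of all genes. On log2(TPM + 1) the counts were 5 and 5. The one that rose in the count fit, Slc40a1 for the iron exporter ferroportin, went from 0.668 ± 0.263 to 21.4 ± 0.459 CPM. Macrophages export iron through ferroportin, and Slc40a1 was at 21.2 CPM in pEpiC library 1, which had the most macrophage marker RNA, and at 21.1 and 21.96 CPM in the others. Their part in the level of Slc40a1 was not tested.

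Of the 5 superoxide dismutase and catalase genes, 3 were higher and 1 lower in CDC-EpiC than in CDC, against 34.2% and 34.6% of all genes. Without CDC-EpiC library 3 only 1 was higher and 1 lower. Sod1 rose from 224 ± 10.7 to 349 ± 17.7 CPM and Sod3, the extracellular form, fell from 415 ± 17.9 to 209 ± 19.6 CPM. In pEpiC, Cat rose from 66.3 ± 2.79 to 96.1 ± 3.25 CPM and the other 4 fell, Sod3 to 162 ± 13.6 CPM. Over all genes 39.8% were higher and 38.5% lower there. Cat and Sod3 kept their call and direction under each of the 17 alternatives.

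The ATF4 response to amino acid shortage and stress of the endoplasmic reticulum is also known to govern Slc7a11, through elements of the C/EBP-ATF kind. Letters of that kind are printed above, but neither binding nor the activity of ATF4 was measured here. Of its 14 genes here, 9 were lower in the clone and 3 higher, against CDC, and the median of their log2 changes was -0.70. Over all genes 34.6% were lower and 34.2% higher, with a median of 0.00. Slc7a5, a transporter of large neutral amino acids, fell from 156 ± 9.29 to 60.4 ± 5.98 CPM, and Atf3 rose from 9.52 ± 1.13 to 29.3 ± 13.9 CPM. Against pEpiC 3 were higher and 10 lower in the clone, beside 40.3% and 41.5% of all genes. Trib3, a pseudokinase induced by ATF4, was at 17.0 ± 2.04 CPM in the clone and 102 ± 10.5 CPM in pEpiC. Between pEpiC and CDC the list was mixed in the count fit, with 5 higher and 6 lower, beside 39.8% and 38.5% of all genes. It was mostly higher with the length offset, with 9 higher and 3 lower, where 54.4% of all calls were higher. Trib3 rose from 36.7 ± 2.14 CPM in CDC and Cebpb fell from 245 ± 22.1 to 126 ± 4.87 CPM.

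The genes whose pattern over the 9 libraries was most like that of Nfe2l2, among 9472 genes with a mean of at least 10 CPM, were Ptch1 (Pearson r = 0.981), Sptan1 (r = 0.981) and Plat (r = 0.981). Like Nfe2l2, each was highest in the clone, as with Plat at 169 ± 11.5 CPM there and 80.5 ± 8.93 CPM in CDC. For Nqo1 they were Orc5 (r = 0.982), Gtpbp10 (r = 0.958) and Zfp326 (r = 0.939), each highest in CDC, as with Orc5 at 20.6 ± 0.859 CPM there and 15.6 ± 1.13 CPM in pEpiC. None of these 6 is among the 10 genes. The correlations describe 9 libraries that fall into 3 kinds of cell.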

How the data were processed

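Poly(A) mRNA was primed with random hexamers and sequenced as 100-base pairs on the BGISEQ-500. The submitters' processing notes name HISAT2 2.0.4, Bowtie2 2.2.5, RSEM 1.2.12, DESeq2 1.4.5 and mm10, without roles; the annotation and strand setting are not given in the sources used here. The authors deposited RSEM expected counts (30.3% not whole), FPKM and TPM for 18245 genes in 9 libraries. FPKM and the 9 columns of means in the deposited table were not used. Each kind of cell is 1 sample entry with 3 columns of libraries, and nothing says whether these came from separate animals or cultures. So n = 3 counts libraries, and SDs and p-values measure the spread between libraries, which may be technical.

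Expected counts were rounded. For each pair of kinds, genes were filtered with filterByExpr (minimum count 10, minimum total 15), scaled by TMM and tested with edgeR 4.0.16 (glmQLFit, glmQLFTest) on 6 libraries, with Benjamini-Hochberg adjustment over all genes tested. CPM levels were TMM-scaled over all 9 libraries. Alternatives were DESeq2 1.42.0, RLE, library size only, no low-count filter, a minimum of 10 counts in all libraries, 1 fit of all 9 libraries, limma 3.58.1 on log2(TPM + 1) and log2(TPM + 0.1), a transcript length offset, a replicate block and libraries left out. For each comparison with CDC, 1 of these alternatives kept only CDC library 3, which leaves no spread within CDC. The fits were also run on simulated counts with 200 genes changed, as many up as down, and no shift of length or composition. That simulation cannot show how the fits behave under such shifts.

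The members and lists were chosen with earlier results of these data known, so no list was given a p. All 10 members are named in each comparison. From each other list, the called gene that rose most and the one that fell most are eligible, given no overlap of the groups and a higher group of 20 CPM or more (the next largest also for the lists closest to the members), and for likeness the 3 genes of highest r on log2(CPM + 1). Gene positions and promoters are from RefSeq.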

Additional observations from a re-analysis of the deposited data

How the results depend on the processing

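DESeq2, RLE, the filters and 1 fit of all 9 libraries changed no call of the 10 genes other than those of Hmox1 in CDC-EpiC against pEpiC and G6pdx in CDC-EpiC against CDC. Most turned signs came on the TPM scales in limma, which change the length scaling, the composition scaling and the model together. For pEpiC against CDC, log2(TPM + 1) turned the log2 changes of Keap1 (0.21), Gclc (0.16), Gclm (0.26), Txnrd1 (0.40) and Srxn1 (0.37), and log2(TPM + 0.1) did so too (0.21, 0.16, 0.27, 0.40 and 0.38). The length offset turned Gclm (0.0076), library size alone turned Txnrd1 (0.010), and leaving out CDC libraries 1 and 2 together turned Nfe2l2 (-0.041). For CDC-EpiC against CDC, the turned values were small. Gclm was at 0.010 on both TPM scales, and Srxn1 at 0.045 on log2(TPM + 1), 0.046 on log2(TPM + 0.1) and 0.024 with library size alone. For CDC-EpiC against pEpiC, log2(TPM + 1) and log2(TPM + 0.1) turned Nfe2l2 (-0.049 and -0.049), Nqo1 (-0.16 and -0.17), Hmox1 (-0.24 and -0.25), Gclm (-0.25 and -0.26) and Srxn1 (-0.33 and -0.33). The length offset turned Nqo1 (-0.23), Hmox1 (-0.31), Gclm (-0.13) and Srxn1 (-0.023), and the stricter count filter turned Srxn1 (-0.00164). The cause was not tested. With 1 library left out, Srxn1 in CDC-EpiC against CDC ranged from -0.078 (without CDC library 1) to 0.019 (without CDC library 3), Nqo1 in CDC-EpiC against pEpiC from -0.00460 (without CDC-EpiC library 1) to 0.41, Gclm there reached 0.20 (called, without CDC-EpiC library 2), and the calls among the 5 superoxide dismutase and catalase genes in CDC-EpiC against CDC from 2 (without CDC-EpiC library 3) to 3, beside 4 with all libraries. Slc7a11 in CDC-EpiC against CDC lost its call on log2(TPM + 0.1) alone, and G6pdx gained one there in 7 of 17 alternatives. With a replicate block, 7 genes were called for pEpiC against CDC, 7 for CDC-EpiC against CDC and 6 for CDC-EpiC against pEpiC, where Hmox1 lost its call (edgeR adjusted p = 0.065). Deviations of same-numbered libraries correlated from -0.147 to 0.185, and not every library correlated best with its own number. With 3 libraries of a kind this cannot show whether same-numbered libraries share an animal or a batch. The sources do not state it. Library depth limits Slc7a11 and Nqo1 most, with as few as 70 and 142 counts.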
